A study of Mus musculus with 22 samples.

Results

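RNA of 43 genes of DNA replication was followed in mouse macrophages stimulated with a bacterial product in the presence or absence of acid. The genes were taken by symbol from a list of replication factors, enzymes of nucleotide supply, chromatin assembly factors and regulators of S phase entry. No cut-off on a measured value was applied, but the list was drawn up with earlier results of these data known. All 43 were among the 16059 genes of the deposited table, and all 43 passed the filter on low counts that left 12213 genes for testing. The cells were bone marrow-derived macrophages, phagocytes grown from marrow of the C57/BL6 strain for 7 days with 30% supernatant of L929 cells, a common source of the macrophage growth factor M-CSF, and moved to 20% supernatant before treatment. Treatment lasted 3 h. In the LPS+LA group, macrophages received lipopolysaccharide (LPS, 100 ng/ml), the endotoxin of Gram-negative bacteria, together with 10 mM L-(+)-lactic acid (LA). The LPS+HCl group received LPS in medium acidified with hydrochloric acid, for which the labels give pH 6.5 as an example. The LPS group received LPS alone, the LA group lactic acid alone at a dose that the labels do not state, and the control group neither. The pH of medium with LA is not stated either. RNA-seq had 2 libraries per group. ATAC-seq, which maps accessible chromatin with a transposase, had 3 samples each of LPS+LA, LPS, LA and control, and none of LPS+HCl. The labels do not state whether the libraries of a group stem from different cultures or animals, and p-values therefore reflect only the spread between libraries, which may be technical.

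Before S phase, the origin recognition complex, Cdc6 and Cdt1 load rings of Mcm2 to Mcm7 proteins onto origins of replication. Mcm10, Cdc45 and the GINS complex turn the loaded rings into active helicases, polymerases copy the opened strands, and the PCNA ring holds the polymerases on DNA. Many of these genes are targets of the E2F transcription factors and are transcribed as cells pass from G1 into S phase. Macrophages divide in medium with M-CSF, and LPS is known to stop that division.

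The libraries held 18668648 to 20219888 counts each, and replicates correlated at 0.982 to 0.992 on log counts. The 12 macrophage markers, all in the table, summed to between 21889 and 22985 CPM in the groups with LPS, 18952 and 18657 in LA and 16652 and 16833 in control, where CPM are counts scaled to a library size adjusted by TMM. Markers of T, B, NK, mast and erythroid cells, neutrophils and fibroblasts each summed to at most 6.34 CPM. Neuron markers, 11 of 12 in the table and none at 0 in all libraries, summed to 20.3 and 19.3 CPM in LPS+LA, 13.5 and 38.7 in LPS+HCl, 9.65 and 10.4 in LPS, 8.88 and 12.0 in LA and 19.3 and 6.25 in control. The 6 oligodendrocyte and astrocyte markers, none at 0 in all libraries, summed to 41.7 and 38.3 CPM in LPS+LA, 37.4 and 49.2 in LPS+HCl, 30.8 and 27.7 in LPS, 61.3 and 54.1 in LA and 57.8 and 54.9 in control. These sums were lowest in both LPS libraries. The part of these transcripts in the results was not tested beyond leaving out control 1 and LPS+HCl 2. Each of these had the higher neuron sum of its group, and LPS+LA libraries, with sums like that of control 1, were kept. The TMM factor was lowest in LPS 2 (0.759) and highest in control 1 (1.27). Scaling by total counts gave a median log2 of all tested genes of -0.77 in LPS against control, where TMM gave -0.05, and of 0.43 in LPS+LA against LPS, where TMM gave 0.03. Changes are given on the TMM scale. In bulk RNA, fewer dividing cells and less RNA per cell cannot be told apart.

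Promoter windows from RefSeq (GRCm38.p6, 250 bases before to 50 after an annotated start) were given for 35 of the 43 genes and are shown because E2F factors, 2 of which are in the list, bind such regions. Windows were searched on both strands for TTTNNCGC, a pattern that covers the textbook E2F site. It occurred in 14 of the 35 genes (40%), against 9.79% of the 9797 tested genes with a window and 5.93% of all 27025 genes with one. The stretches below come from 4 genes that fell with LPS (Cdc6, Mcm5, Mcm7 and Gins3), from 4 that were not called (Mcm6, Orc1, Pola1 and Rfc3), and from the first bases of Cdt1 and E2f2, which fell too. Capitals mark a match to TTTNNCGC or to its reverse complement, with overlapping matches joined, and each stretch reads 5′ to 3′ on the gene's strand.
Cdc6: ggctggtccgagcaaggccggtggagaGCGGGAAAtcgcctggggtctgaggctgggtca
Mcm5: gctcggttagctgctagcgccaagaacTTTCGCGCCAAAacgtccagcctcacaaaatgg
Mcm7: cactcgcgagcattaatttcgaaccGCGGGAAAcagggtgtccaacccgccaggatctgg
Gins3: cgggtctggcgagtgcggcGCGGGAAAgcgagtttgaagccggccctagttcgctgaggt
Mcm6: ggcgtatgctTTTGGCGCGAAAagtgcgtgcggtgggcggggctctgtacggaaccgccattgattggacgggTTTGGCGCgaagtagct
Orc1: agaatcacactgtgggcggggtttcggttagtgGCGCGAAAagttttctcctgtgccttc
Pola1: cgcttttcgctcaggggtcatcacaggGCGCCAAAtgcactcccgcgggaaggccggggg
Rfc3: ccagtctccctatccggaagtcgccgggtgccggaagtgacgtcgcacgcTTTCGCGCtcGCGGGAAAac
Cdt1: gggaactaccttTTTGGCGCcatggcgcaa
E2f2: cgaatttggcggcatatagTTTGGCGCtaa

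The plus-strand stretches are Cdc6 at chr11:98907986-98908045, Mcm5 at chr8:75109329-75109388, Gins3 at chr8:95633499-95633558, Orc1 at chr4:108579394-108579453, Cdt1 at chr8:122568035-122568064 and E2f2 at chr4:136172294-136172323. The minus-strand stretches are Mcm7 at chr5:138172014-138172073, Mcm6 at chr1:128359736-128359825, Pola1 at chrX:93632261-93632320 and Rfc3 at chr5:151651199-151651268. The stretches of Cdt1 and E2f2 lie 21 to 50 bases after the start used for the window, that of Rfc3 spans that start, and the others lie before it. RefSeq's gene bounds reach further than that start for Cdc6, Mcm7, Orc1 and Pola1, so that their stretches fall inside the bounds. Genes lowered by LPS were found with and without the pattern. Of the 14 genes with it, 9 fell with LPS and 5 were not called, with a median log2 of -0.81, and of the 21 genes without it, 18 fell, 1 rose and 2 were not called, with a median of -0.95. Of all tested genes 32.4% fell and 32.4% rose in that comparison. In LPS+LA against LPS, 10 of the 14 and 15 of the 21 were higher, against 29.2% of all tested genes. CCAAT was found in 62.9% of the 35 genes and 43.5% of tested genes, GGGCGG in 77.1% and 68.2%, and TTTGAA in 14.3% and 14.6%. The median GC content of the windows was 62.2% for the replication genes and 60.7% for tested genes.

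**Figure D1:**
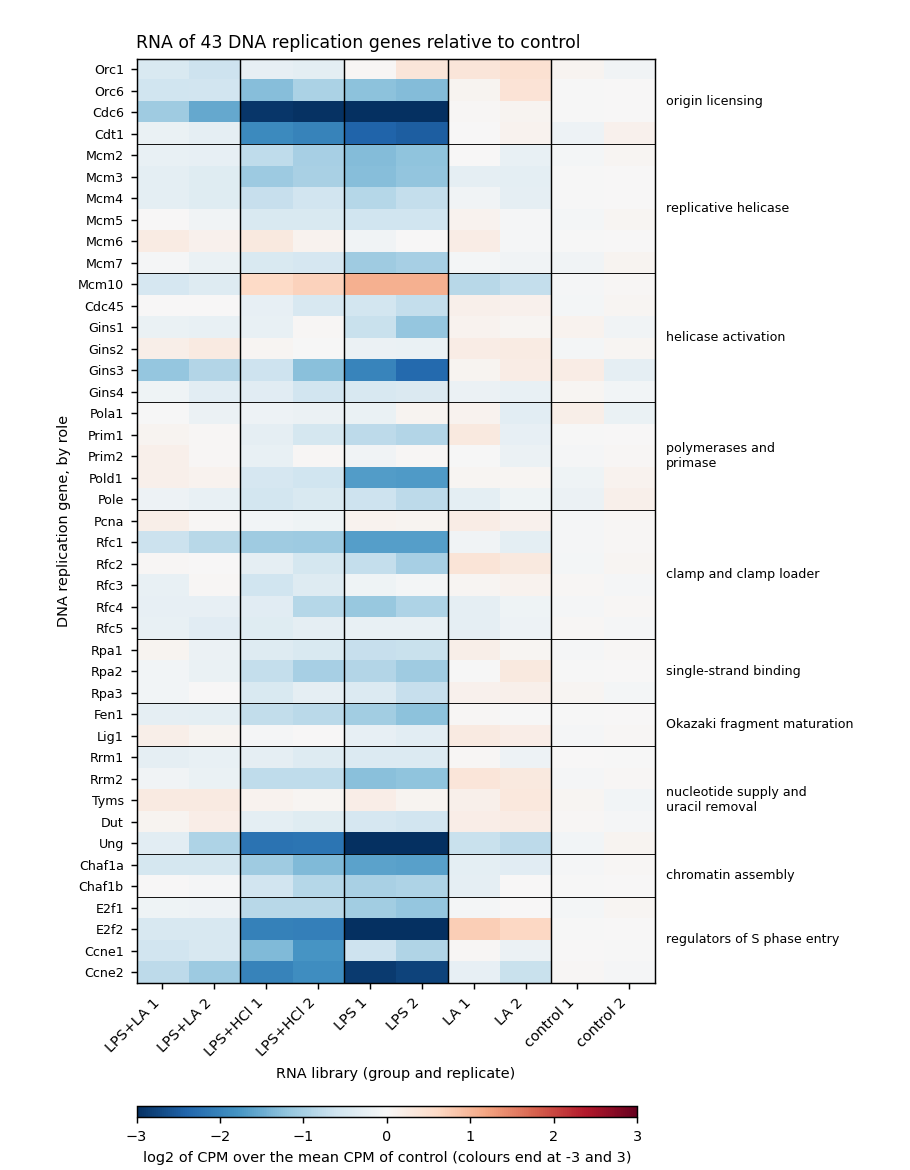
RNA of each of the 43 genes (down the page, by role) in each of the 10 libraries (across), as log2 of CPM over the mean of the control libraries, blue for lower and red for higher. Most genes are bluest in the LPS libraries, paler in LPS+HCl and paler again in LPS+LA, while Mcm10 is red in LPS and LPS+HCl.

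The replication genes spanned a wide range of levels in control cells, from mean TPM (the authors' value per transcript length) of 646 for Pcna to 5.24 for Orc1. Pcna was followed by Mcm6 at 183, Rrm2 at 175 and Rrm1 at 153 TPM. Next above Orc1 were Gins3 at 8.84 and Pola1 at 13.4 TPM. Within the Mcm2 to Mcm7 ring, which holds 1 copy of each of 6 subunits, mean TPM in LPS ran from 20.9 for Mcm2 to 107 for Mcm6, and in control from 74.0 for Mcm4 to 183 for Mcm6.

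Summed over the 43 genes, CPM was 2844 and 2692 in LPS+LA, 2233 and 2154 in LPS+HCl, 1965 and 1969.9 in LPS, 3189 and 3018 in LA and 2953 and 3083 in control. The LPS libraries were lowest and those with LA alone and control overlapped. As a percentage of the control mean, the median gene stood at 87.8% in LPS+LA (41.4% to 121%), 71.2% in LPS+HCl (13.0% to 156%), 56.2% in LPS (4.74% to 209%) and 103% in LA (59.0% to 160%). Group means were in the order LPS, LPS+HCl, LPS+LA, from lowest to highest, for 31 of the 43 genes, an order that 30.6% of all tested genes showed. The opposite order held for 2 of 43, against 29.5% of tested genes. LPS had the lowest mean of the 5 groups for 34 of 43, against 33.3% of tested genes.

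**Figure D2:**
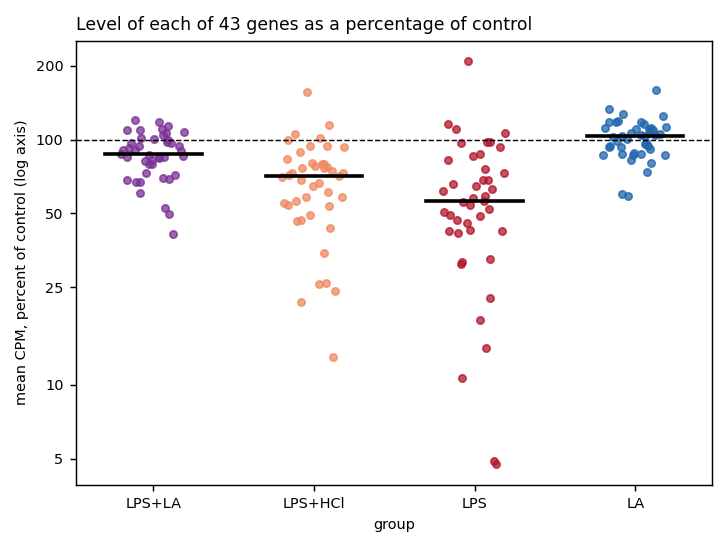
Mean CPM of each of the 43 genes as a percentage of its control mean (log axis) in 4 groups. Points are genes, black bars are medians (87.8% in LPS+LA, 71.2% in LPS+HCl, 56.2% in LPS, 103% in LA) and the dashed line is control. LPS has the widest spread, with 2 genes near 5% and 1 above 200%.

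LPS against control shows the response to LPS alone. RNA of 33 of the 43 genes fell, that of 1, Mcm10, rose, and 9 were not called. A gene was called at an adjusted p under 0.05 in the quasi-likelihood test of edgeR, with Benjamini-Hochberg adjustment over all 12213 genes. Over all tested genes 32.4% were lower and 32.4% higher. The median log2 was -0.83 for the 43 genes and -0.05 for all genes tested. E2f2, Cdc6, Ung, Ccne2 and Cdt1 fell most, and they serve S phase entry, origin licensing and uracil repair. All 4 regulators, 3 of 4 licensing genes, 5 of 6 ring subunits and all 3 single-strand binding subunits fell, with median log2 of -1.96, -1.85, -0.91 and -0.67. With total-count scaling 42 of the 43 were called lower and Mcm10 stayed the only one higher. That scaling called 8289 of all 12213 genes lower and 1761 higher.

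Among the regulators of S phase entry, all 4 fell. E2f2 (NCBI Gene 242705, chromosome 4, 136172274 to 136196057), an E2F factor that activates S phase genes, had 2.79 and 4.30 CPM in LPS libraries, against 73.5 and 75.9 CPM in control (log2 -4.40, SE 0.14, adjusted p = 9.64e-19, edgeR). That is 21.1-fold lower, and the groups were far apart. Ccne2, a cyclin E that activates the kinase CDK2 at the start of S phase, had 4.54 and 4.89 CPM in LPS and 34.2 and 32.4 in control (log2 -2.82, SE 0.17). The other cyclin E gene, Ccne1, fell less, with 17.0 and 13.9 CPM in LPS and 26.5 and 25.7 in control (log2 -0.76, SE 0.14). E2f1, the founding member of the activating E2F factors, had 32.5 and 29.9 CPM in LPS and 63.9 and 69.4 in control (log2 -1.10, SE 0.09).

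Of the 4 licensing genes, Cdc6, Cdt1 and Orc6 fell and Orc1 was not called. Cdc6 (NCBI Gene 23834, chromosome 11, 98907709 to 98923942), an ATPase that loads the helicase at origins, had 0.907 and 1.72 CPM in LPS and 26.8 and 27.0 in control (log2 -4.35, SE 0.23, adjusted p = 2.37e-14, edgeR). It held 14 counts in its lowest library, the lowest count of any of the 43 genes, so its level in LPS is among the least precise. Ung was as sparse, with 19 and 18 counts in the LPS libraries. Cdt1 (NCBI Gene 67177, chromosome 8, 122568015 to 122573130), which brings the helicase to Cdc6, had 18.5 and 17.6 CPM in LPS and 88.8 and 107 in control (log2 -2.44, SE 0.10). Orc6, a small subunit of the origin recognition complex, had 7.58 and 7.20 CPM in LPS and 17.7 and 17.9 in control (log2 -1.27, SE 0.16). Orc1, its largest subunit, had 6.54 and 8.26 CPM in LPS and 6.83 and 6.01 in control, with overlapping groups (log2 0.20, 95% interval -0.19 to 0.60). Orc1 overlaps Prpf38a in the annotation, and the sources used here do not say whether counting used strand.

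In the Mcm2 to Mcm7 ring, RNA of 5 of 6 subunits fell. Mcm3 had 61.5 and 65.6 CPM in LPS and 148 and 149.9 in control (log2 -1.23, SE 0.08), and Mcm2 fell by a like amount (log2 -1.24, SE 0.10). Mcm5 had 102 and 102 CPM in LPS and 147 and 161 in control (log2 -0.60, SE 0.08), the smallest of the called falls. Mcm7 (log2 -1.03, SE 0.09) and Mcm4 (log2 -0.79, SE 0.09) lay between. Mcm6, the most abundant subunit, had 202 and 221 CPM in LPS and 214 and 221 in control. The groups overlapped (log2 -0.04, interval -0.20 to 0.13). With total-count scaling Mcm6 was also lower (log2 -0.76), still less than any other subunit.

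Helicase activation held the gene that rose. Mcm10 (NCBI Gene 70024, chromosome 2, 4990724 to 5012791), which helps the loaded helicase unwind DNA, had 107 and 109 CPM in LPS and 50.4 and 52.8 in control (log2 1.07, SE 0.08, adjusted p = 8.32e-11, edgeR), 2.09-fold higher. The 2 LPS libraries exceeded the 2 control libraries by a wide margin. Gins3 (NCBI Gene 78833, chromosome 8, 95633559 to 95645059), a subunit of the 4-protein GINS complex, had 2.14 and 1.65 CPM in LPS and 9.78 and 6.98 in control (log2 -2.14, SE 0.28). Gins4, its partner in the complex, had 24.4 and 24.9 CPM in LPS and 35.5 and 32.2 in control (log2 -0.46, SE 0.11). Gins1 (log2 -0.89) and the helicase cofactor Cdc45 (log2 -0.63) also fell. Gins2, another GINS subunit, had 26.8 and 26.4 CPM in LPS and 29.2 and 31.7 in control and was not called (log2 -0.19, interval -0.40 to 0.01).

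Among the polymerases, Pold1, the catalytic subunit of polymerase delta that copies the lagging strand, had 24.0 and 23.5 CPM in LPS and 69.9 and 82.7 in control (log2 -1.68, SE 0.10). Pole, the catalytic subunit of the leading-strand polymerase epsilon, fell less, with 42.0 and 37.1 CPM in LPS and 56.9 and 71.4 in control (log2 -0.70, SE 0.11). Of the enzyme that starts each new strand, Prim1, the catalytic subunit of primase, fell (log2 -0.83, SE 0.17). Prim2, the large primase subunit, had 25.8 and 28.3 CPM in LPS and 27.1 and 28.2 in control (log2 -0.03, interval -0.26 to 0.20, not called). Pola1, the polymerase of the same complex, was not called either (log2 -0.04, interval -0.33 to 0.24), and the groups overlapped for both.

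The sliding clamp and its loader did not move together. Pcna, the clamp and the most abundant transcript of the 43, had 335 and 326 CPM in LPS and 304 and 317 in control (log2 0.09, interval -0.04 to 0.22, not called). Rfc1, the large subunit of the loader, had 22.9 and 23.1 CPM in LPS and 70.2 and 74.4 in control (log2 -1.65, SE 0.10). Of the 4 small subunits, Rfc2 fell to 30.8 and 25.3 CPM in LPS against 48.5 and 51.9 in control (log2 -0.84, SE 0.11) and Rfc4 fell as well (log2 -1.03), while Rfc3 (log2 -0.10) and Rfc5 (log2 -0.22) were not called. With total-count scaling all 6 were lower, Pcna by the least (log2 -0.63). Rfc4 overlaps Eif4a2 in the annotation, and Pcna and Tyms have annotated pseudogenes with which the counting could have shared reads.

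All 3 subunits of RPA, the single-strand binding protein, fell. Rpa1 had 80.1 and 81.6 CPM in LPS and 126 and 132 in control (log2 -0.67, SE 0.09), and Rpa2 had 18.1 and 16.1 CPM in LPS and 33.3 and 34.0 in control (log2 -0.98, SE 0.13). Rpa3, the smallest subunit and the one of lowest CPM, had 3.95 and 3.30 CPM in LPS and 5.54 and 5.05 in control (log2 -0.54, SE 0.23, adjusted p = 0.0464, edgeR). The Rpa3 call was lost under 10 of 17 alternatives, among them leaving out LPS 1 (log2 -0.68), LPS 2 (-0.42), control 1 (-0.48), control 2 (-0.61) or LPS+HCl 2 (-0.54). Fen1, the nuclease that trims Okazaki fragments, had 37.6 and 33.0 CPM in LPS and 76.8 and 78.3 in control (log2 -1.13, SE 0.09), while Lig1, the ligase that seals them, fell less, with 106 and 101 CPM in LPS and 122 and 129 in control (log2 -0.28, SE 0.07).

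Of the 5 genes of nucleotide supply and uracil removal, 4 fell. Rrm2, the subunit of ribonucleotide reductase whose level follows S phase, had 62.5 and 65.0 CPM in LPS and 147 and 153 in control (log2 -1.23, SE 0.08). Rrm1, its large partner, had 184 and 184 CPM in LPS and 245 and 242 in control (log2 -0.40, SE 0.07). Tyms, which makes thymidylate, had 38.7 and 35.6 CPM in LPS and 35.2 and 31.9 in control and was not called (log2 0.15, interval -0.05 to 0.35). The enzymes that keep uracil out of DNA fell by different amounts. Dut, which breaks down dUTP, fell by 0.54 on the log2 scale, and Ung (NCBI Gene 22256, chromosome 5, 114130366 to 114139321), the glycosylase that cuts uracil out, had 1.23 and 1.19 CPM in LPS and 10.7 and 11.9 in control (log2 -3.22, SE 0.27). Ung overlaps Alkbh2 in the annotation. Both subunits of CAF-1, which deposits histones on new DNA, fell, Chaf1a to 17.3 and 16.9 CPM in LPS against 51.0 and 53.5 in control (log2 -1.61, SE 0.11) and Chaf1b to 24.6 and 25.4 CPM in LPS against 47.6 and 48.8 in control (log2 -0.95, SE 0.11).

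**Figure D3:**
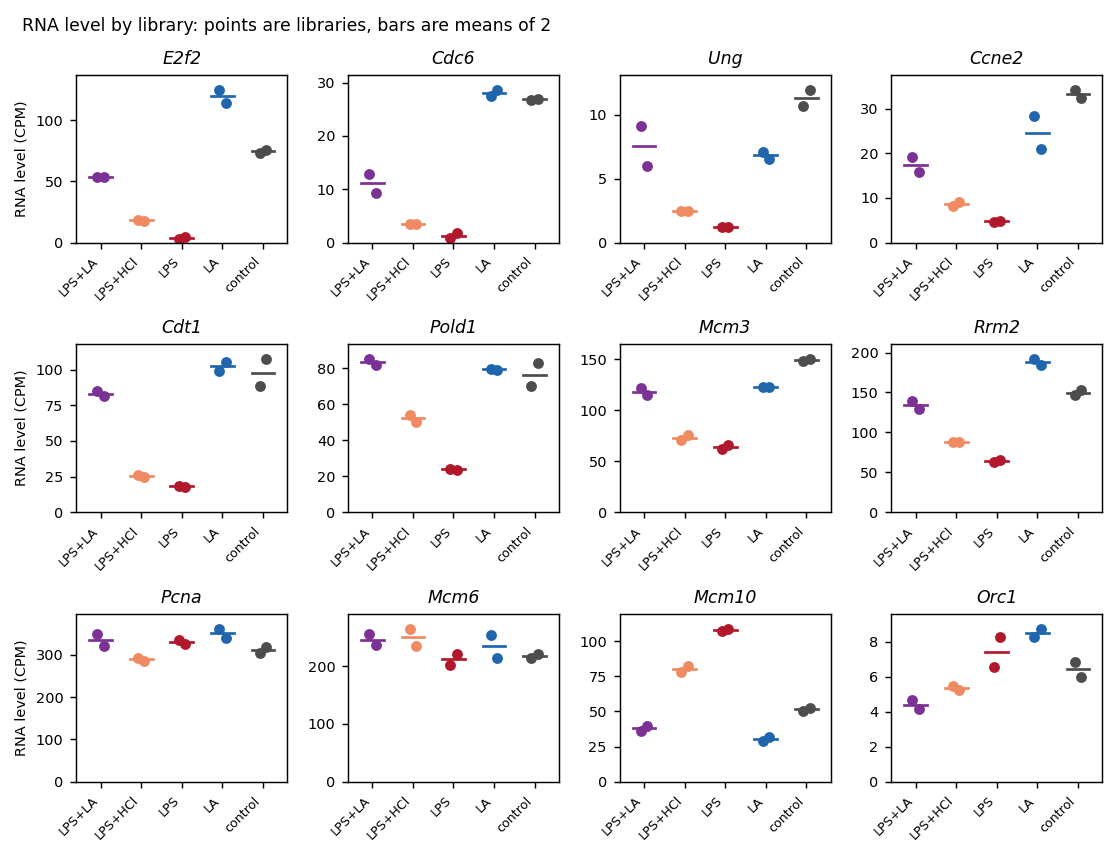
RNA level (CPM) of 12 of the 43 genes in each library. Points are libraries and bars are means of 2, with groups in the order LPS+LA, LPS+HCl, LPS, LA and control. E2f2, Cdc6, Ung, Ccne2 and Cdt1 are lowest in LPS, the groups of Pcna and Mcm6 lie close together, and Mcm10 is highest in LPS.

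LPS+LA against LPS shows what lactic acid changed in LPS-treated cells. RNA of 31 of the 43 genes was higher in LPS+LA than in LPS, 2 were lower and 10 were not called (edgeR, adjusted p under 0.05), where 29.2% of tested genes were higher and 29.7% lower. The median log2 was 0.69 for the 43 genes and 0.03 for all genes tested. This comparison shares its LPS libraries with LPS against control, so the values of both are given side by side and no relation between them is drawn. All 6 subunits of the Mcm2 to Mcm7 ring and both CAF-1 subunits were higher, and Mcm10 and Orc1 were the 2 lower genes.

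E2f2 had 53.7 and 53.4 CPM in LPS+LA libraries and 2.79 and 4.30 in LPS (log2 3.92, SE 0.14, adjusted p = 6.88e-17, edgeR), which is 15.1-fold higher. Cdc6 had 13.0 and 9.32 CPM in LPS+LA and 0.907 and 1.72 in LPS (log2 3.08, SE 0.25), and Ung 9.15 and 6.01 in LPS+LA and 1.23 and 1.19 in LPS (log2 2.64, SE 0.28). Both LPS+LA libraries were several times above both LPS libraries for each of these 3 genes. Cdt1 had 84.9 and 81.3 CPM in LPS+LA and 18.5 and 17.6 in LPS (log2 2.20, SE 0.10). Ccne2 had 19.2 and 15.7 CPM in LPS+LA and 4.54 and 4.89 in LPS (log2 1.89, SE 0.18). Ccne1 was not called, with 17.6 and 18.9 CPM in LPS+LA and 17.0 and 13.9 in LPS (log2 0.24, interval -0.05 to 0.53), although the libraries did not overlap.

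Pold1 was the polymerase subunit with the widest difference, at 84.8 and 81.8 CPM in LPS+LA and 24.0 and 23.5 in LPS (log2 1.81, SE 0.10). Rrm2 had 139.6 and 129.7 CPM in LPS+LA and 62.5 and 65.0 in LPS (log2 1.08, SE 0.08), and Chaf1a 36.2 and 36.1 in LPS+LA and 17.3 and 16.9 in LPS (log2 1.08, SE 0.11). In the helicase ring the log2 ran from 0.22 for Mcm6 to 1.01 for Mcm2. The Mcm6 call was lost with the size factors and test of DESeq2 and without LPS+LA 1 or LPS 1 (log2 0.16 each), and that of Gins1 without LPS 2 (0.47). Rfc1 (log2 0.92), Rfc2 (0.86) and Rfc4 (0.78) were higher, while Pcna, at 349 and 321 CPM in LPS+LA and 335 and 326 in LPS, was not called (log2 0.02, interval -0.12 to 0.15).

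Mcm10 moved the other way, with 36.2 and 39.5 CPM in LPS+LA and 107 and 109 in LPS (log2 -1.51, SE 0.09, adjusted p = 4.3e-13, edgeR). Its LPS+LA libraries lay 2.85-fold lower than LPS and below control as well. Orc1 had 4.66 and 4.16 CPM in LPS+LA and 6.54 and 8.26 in LPS (log2 -0.75, SE 0.21). The Orc1 call was lost with total-count scaling (log2 -0.34) and without LPS 2 (-0.56), whereas Mcm10 was called lower under each of 17 alternatives. With total-count scaling 41 of the 43 genes were higher and Mcm10 was the 1 called lower. Of all 12213 genes, that scaling called 6208 higher and 2032 lower here.

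**Figure D4:**
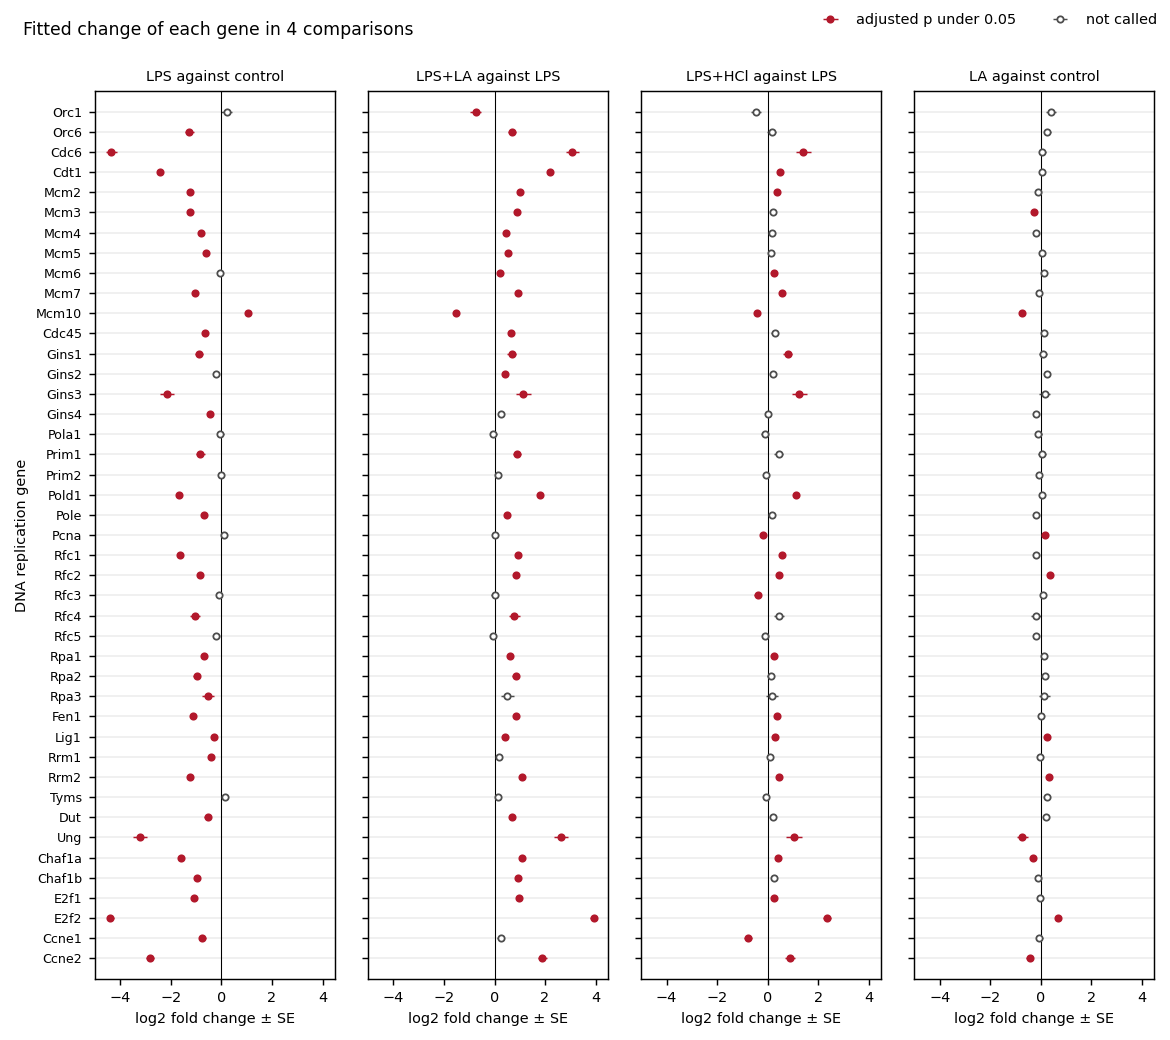
Fitted log2 fold change with its SE for each of the 43 genes in LPS against control, LPS+LA against LPS, LPS+HCl against LPS and LA against control. Filled red points passed an adjusted p of 0.05 in edgeR. E2f2 and Cdc6 lie near -4 in the first panel, and E2f2 near 4 in the second, and no point passes 1 in either direction in the panel of LA against control.

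Acid without added lactate was tested by LPS+HCl against LPS, and lactic acid beyond acid by LPS+LA against LPS+HCl. RNA of 19 of the 43 genes was higher in LPS+HCl than in LPS and 4 were lower, where 18% of tested genes were higher and 20.8% lower, and the median log2 was 0.24 against 0.01 for all genes. Total-count scaling gave 31 higher and 1 lower, where it called 4535 of all 12213 genes higher and 1310 lower. Without LPS 2, or without LPS+HCl 1, 14 in all were called in place of 23, and without both control 1 and LPS+HCl 2 it was 19. RNA of 28 of the 43 genes was higher in LPS+LA than in LPS+HCl and 1, Mcm10, was lower, where 18.4% of tested genes were higher and 22.5% lower. These 28 held all 4 regulators, 5 of 6 ring subunits, 4 of 6 clamp and loader genes and 3 of 4 licensing genes. Each of the 4 clamp and loader calls was lost when 1 library was left out. Pcna (log2 0.16) and Rfc1 (0.28) were lost without LPS+LA 1, Rfc2 (0.28) without LPS+HCl 2 and Rfc3 (0.27) without LPS+LA 2. The calls of Mcm4 (0.25) and Orc6 (0.37) in this comparison were lost without LPS+HCl 1. The median log2 there was 0.38, against -0.00 for all genes, and 23 genes were called without control 1 and LPS+HCl 2 in place of 29. The pH with LA is not stated, so the 2 acids were not shown to be matched in pH.

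For E2f2, CPM was 53.7 and 53.4 in LPS+LA, 18.3 and 17.9 in LPS+HCl, 2.79 and 4.30 in LPS, 125 and 114 in LA and 73.5 and 75.9 in control. It was higher in LPS+HCl than in LPS (log2 2.35, SE 0.15) and higher in LPS+LA than in LPS+HCl (log2 1.56, SE 0.11). No 2 of its 5 groups overlapped, and LA alone stood above control. For Cdt1, CPM was 84.9 and 81.3 in LPS+LA, 26.0 and 24.6 in LPS+HCl, 18.5 and 17.6 in LPS, 99.4 and 105 in LA and 88.8 and 107 in control. LPS+HCl was above LPS (log2 0.49, SE 0.11), and LPS+LA was above LPS+HCl by more (log2 1.71, SE 0.10). Cdc6 had 3.56 and 3.42 CPM in LPS+HCl, higher than LPS (log2 1.41, SE 0.29), and LPS+LA was higher than LPS+HCl in turn (log2 1.67, SE 0.20).

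Ung, for which LPS+HCl had 2.45 and 2.49 CPM, was likewise higher than LPS (log2 1.02, SE 0.32) and lower than LPS+LA (log2 1.62 for LPS+LA against LPS+HCl). The Ung call over LPS was lost without LPS+HCl 2 (log2 1.01), LPS 1 (1.04) or LPS 2 (0.99). Pold1 had 54.1 and 50.1 CPM in LPS+HCl, between LPS+LA and LPS (log2 1.13 against LPS, and 0.68 for LPS+LA against LPS+HCl). Gins3 overlapped between the acids, with 3.75 and 4.58 CPM in LPS+LA and 5.45 and 3.53 in LPS+HCl, and the difference was not called (log2 -0.11, interval -0.61 to 0.40). Its call over LPS (log2 1.24, SE 0.29) was lost without LPS+HCl 1 (log2 0.90). Gins1 was not called between the acids either (log2 -0.11, interval -0.44 to 0.22), nor was Mcm6 (log2 -0.02, interval -0.19 to 0.14).

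The 4 genes lower in LPS+HCl than in LPS were Ccne1, Mcm10, Rfc3 and Pcna. Ccne1 had 17.6 and 18.9 CPM in LPS+LA, 10.4 and 7.62 in LPS+HCl, 17.0 and 13.9 in LPS and 26.5 and 25.7 in control, so that LPS+HCl was lowest of these (log2 -0.78, SE 0.16, for LPS+HCl against LPS). LPS+LA was higher than LPS+HCl for Ccne1 (log2 1.01, SE 0.16). Cyclin E2 did not share this, since Ccne2 was higher in LPS+HCl than in LPS (log2 0.88, SE 0.19). Mcm10 had 78.3 and 82.7 CPM in LPS+HCl, between LPS+LA and LPS (log2 -0.42, SE 0.08, for LPS+HCl against LPS), a call lost with total-count scaling at log2 -0.19. Rfc3 had 13.4 and 15.4 CPM in LPS+HCl and 18.3 and 19.4 in LPS (log2 -0.39, SE 0.14), and Pcna 293 and 286 in LPS+HCl and 335 and 326 in LPS (log2 -0.19, SE 0.07). Leaving out 1 library ended the Pcna call whichever of the 4 it was (log2 -0.22 to -0.17), and the Rfc3 call unless it was LPS+HCl 2 (-0.43 to -0.30). Both calls were also lost with total-count scaling, under which Pcna came to log2 0.044.

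LA alone changed few of the genes. Against control, 5 of the 43 were higher and 5 lower, where 20.4% of tested genes were higher and 17.9% lower, and the median log2 was 0.05 against 0.00 for all genes. Total-count scaling gave 2 higher and 10 lower, where it called 1719 of all 12213 genes higher and 3070 lower. E2f2 had 125 and 114 CPM in LA and 73.5 and 75.9 in control (log2 0.68, SE 0.09, adjusted p = 3.33e-06, edgeR), and both LA libraries lay above the control libraries. Rfc2 had 66.0 and 61.9 CPM in LA and 48.5 and 51.9 in control (log2 0.35), and Rrm2 191 and 184 in LA and 147 and 153 in control (log2 0.32). Lig1 had 150.3 and 145 CPM in LA and 122 and 129 in control (log2 0.23), and Pcna 361 and 339 in LA and 304 and 317 in control (log2 0.17). These differences were small beside that of E2f2. Mcm10 had 29.2 and 31.7 CPM in LA and 50.4 and 52.8 in control (log2 -0.76, SE 0.09), and Ung 7.07 and 6.56 in LA and 10.7 and 11.9 in control (log2 -0.73, SE 0.21). Ccne2 had 28.3 and 20.9 CPM in LA and 34.2 and 32.4 in control (log2 -0.44), Chaf1a 42.7 and 41.2 in LA and 51.0 and 53.5 in control (log2 -0.31), and Mcm3 123 and 122 in LA and 148 and 149.9 in control (log2 -0.28). The groups did not overlap for any of these 10 genes, nor for 15 of the 33 genes that were not called. The share of all tested genes without overlap was not computed, so this separation is not read as a result. The calls of E2f2, Rrm2, Mcm10 and Mcm3 held under each of 17 alternatives, and those of Pcna, Rfc2, Lig1, Ung, Chaf1a and Ccne2 were lost under at least 1. Ung was lost without control 2 (log2 -0.65), Chaf1a without LA 2 (-0.29) or control 2 (-0.28), and Ccne2 without LA 2 (-0.24) or control 1 (-0.40). Rfc2 and Lig1 were lost without LA 1 (0.30 for Rfc2, 0.21 for Lig1) or control 1 (0.30 for Rfc2, 0.20 for Lig1), and Pcna under 12 alternatives.

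The LPS effect within LA was read from LPS+LA against LA, which shares no library with LPS against control. Here 12 of the 43 genes were lower and 1, Mcm10, higher, where 14.6% of tested genes were lower and 15.9% higher. The median log2 was -0.13, against -0.01 for all genes. Of all 12213 genes, total-count scaling called 4260 lower and 1294 higher in this comparison. Without LPS+LA 2 the number called was 8 in place of 13, and with total-count scaling it was 28, all lower. All 4 licensing genes fell, Cdc6 to 13.0 and 9.32 CPM in LPS+LA against 27.5 and 28.7 in LA (log2 -1.34, SE 0.16) and Orc1 to 4.66 and 4.16 CPM in LPS+LA against 8.30 and 8.75 in LA (log2 -0.95, SE 0.21). E2f2 had 53.7 and 53.4 CPM in LPS+LA and 125 and 114 in LA (log2 -1.16, SE 0.09). Gins3 had 3.75 and 4.58 CPM in LPS+LA and 8.92 and 9.73 in LA (log2 -1.16, SE 0.24). Orc6 (log2 -0.83), Cdt1 (-0.30), Rfc1 (-0.54) and Rrm2 (-0.48) were lower too, and Mcm10 was higher at 36.2 and 39.5 CPM in LPS+LA and 29.2 and 31.7 in LA (log2 0.31, SE 0.09). The Cdt1 call was lost without LPS+LA 2 (log2 -0.27) or LA 2 (-0.26), and the Mcm10 call without LPS+LA 2 (0.25) or LA 1 (0.26). None of the 6 ring subunits and none of the 5 polymerase and primase genes was called, and Pold1 had 84.8 and 81.8 CPM in LPS+LA and 79.6 and 78.8 in LA (log2 0.07, interval -0.10 to 0.25).

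Of the 33 genes that LPS lowered without LA, 11 (33.3%) were lower in LPS+LA than in LA and 22 were not called. Of all 3951 tested genes that LPS lowered, 35.6% were also lower in LPS+LA than in LA, so the share for the replication genes was near that of all genes. The size of the LPS change was smaller with LA than without for 39 of the 43 genes (90.7%), against 79.1% of all genes tested. The median size was log2 0.15 with LA and 0.84 without LA for the 43 genes, and 0.26 with LA and 0.62 without LA for all genes. Across the 43 genes, which are not independent replicates and share their libraries, the 2 LPS effects had a Pearson's r of 0.606 and a Spearman's rho of 0.46, against 0.692 and 0.633 over all genes tested.

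The difference itself was tested by the interaction, which is the log2 of LPS+LA against LPS minus the log2 of LA against control. It was positive for 28 of the 43 genes and negative for 2, where 20.4% of tested genes were positive and 23.9% negative, and its median was 0.60 against -0.00 for all genes. The interaction holds the LPS and control libraries of LPS against control, so no relation between these counts is drawn. Ung (log2 3.37, SE 0.35), E2f2 (3.24, SE 0.17), Cdc6 (3.02, SE 0.29), Ccne2 (2.33, SE 0.23) and Cdt1 (2.14, SE 0.14) had the largest values. Orc1 (-1.15, SE 0.29) and Mcm10 (-0.75, SE 0.12) were negative, and both of these calls were lost with total-count scaling (-0.64 for Orc1, -0.24 for Mcm10). Among the 13 genes with no called interaction was Orc6, for which CPM was 11.8 and 12.0 in LPS+LA, 7.40 and 9.22 in LPS+HCl, 7.58 and 7.20 in LPS, 18.8 and 23.6 in LA and 17.7 and 17.9 in control, and its interaction was log2 0.44 with an interval of -0.00 to 0.88.

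**Figure D5:**
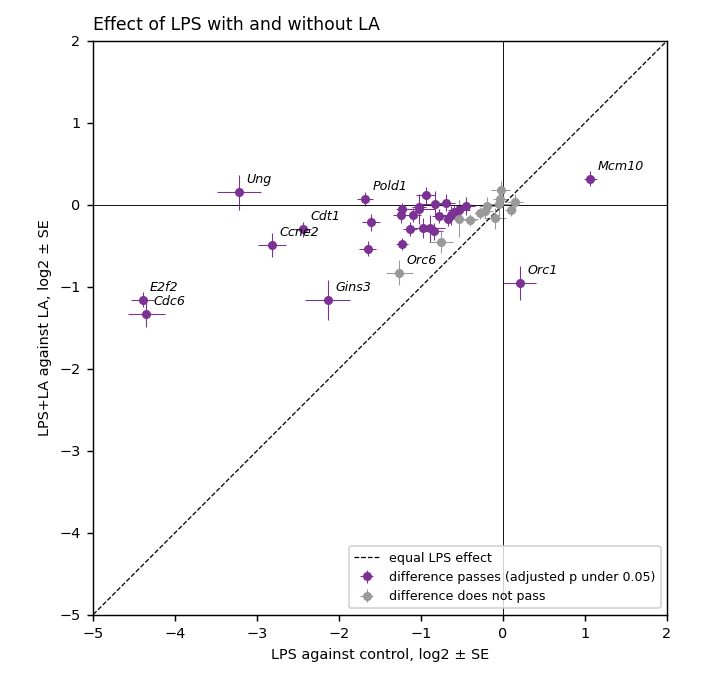
Log2 effect of LPS in the presence of LA (LPS+LA against LA, y axis) and in its absence (LPS against control, x axis) for each of the 43 genes, with SE bars. Purple points passed the test of the difference, grey points did not, and the dashed line marks equal effects. E2f2, Cdc6, Ung, Ccne2 and Cdt1 lie far above the line, Orc1 lies below it, and Mcm10 lies below it and above 0 on both axes.

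Other genes of the same pathways, from lists that were also drawn up with earlier results known, were counted in the same fit. To set beside each list, 32.4% of all tested genes fell and 32.4% rose with LPS. In LPS+LA against LPS, 29.2% of all tested genes were higher and 29.7% lower. Of 33 other replication factors, 22 fell and 4 rose with LPS, and 21 were higher and 4 lower in LPS+LA than in LPS. Clspn, which carries the checkpoint signal at stalled forks, had 40.3 and 36.8 CPM in LPS+LA, 9.40 and 12.6 in LPS and 71.1 and 71.5 in control. Gmnn, the inhibitor of Cdt1, was lower in LPS than in control (log2 -2.40, SE 0.18) and higher in LPS+LA than in LPS (log2 2.26, SE 0.18). Ticrr, needed to fire origins, fell with LPS (log2 -2.82, SE 0.17) and was higher in LPS+LA than in LPS (log2 1.85, SE 0.18).

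In the E2F, Rb and CDK2 list, 13 of 17 genes fell and 3 rose with LPS, and 11 were higher and 2 lower in LPS+LA than in LPS. Skp2, part of the ubiquitin ligase that degrades the CDK inhibitor p27, had 15.3 and 16.2 CPM in LPS+LA, 3.37 and 3.63 in LPS and 28.9 and 31.8 in control. E2f7, a repressive E2F factor, fell with LPS (log2 -3.09, SE 0.17). Of 8 replication-coupled chromatin genes 5 fell and 1 rose with LPS, and 7 were higher and 0 lower in LPS+LA than in LPS. Dnmt1, which copies DNA methylation to new strands, had 269.7 and 246 CPM in LPS+LA, 106 and 104 in LPS and 309 and 351 in control. Its partner Uhrf1 fell too (log2 -1.97, SE 0.09).

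Of 20 mitosis genes, 18 fell and 1 rose with LPS (median log2 -0.60), and 16 were higher and 1 lower in LPS+LA than in LPS (median 0.53). For Mki67, the proliferation antigen Ki-67, CPM was 592 and 666 in LPS+LA, 533 and 604 in LPS+HCl, 545 and 515 in LPS, 587 and 612 in LA and 745 and 828 in control. It fell with LPS (log2 -0.57, SE 0.08), and LPS+LA was above LPS (log2 0.25, SE 0.08). Of 13 other nucleotide supply genes 8 fell and 3 rose with LPS, and 6 were higher and 3 lower in LPS+LA than in LPS. Tk1, thymidine kinase, had 90.1 and 90.7 CPM in LPS+LA, 35.1 and 34.8 in LPS and 73.9 and 81.3 in control. Of 9 G1 cyclins and kinases 6 fell and 3 rose with LPS, and 5 were higher and 3 lower in LPS+LA than in LPS. Ccnd1, cyclin D1, had 410.2 and 362 CPM in LPS+LA, 99.6 and 112 in LPS and 458 and 429 in control. Cdkn1a, the CDK inhibitor p21, was higher in LPS than in control (log2 3.25, SE 0.08), higher in LA than in control (log2 2.20, SE 0.07) and lower in LPS+LA than in LPS (log2 -0.43, SE 0.07).

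At the chromatin, most replication promoters were marked as open in each sample. The authors called peaks in each ATAC sample separately, 76680 to 100667 per sample, with no read counts deposited with them, so that only presence was compared. Of the 35 genes with a promoter window, 33 (94.3%) had a peak there in each of the 12 samples, against 87.8% of 9797 tested genes. The mean number per sample was 34 in LPS+LA, 34 in LPS, 33.7 in LA and 33.7 in control. E2f2 had a peak in 10 of 12 samples, absent from LA 2 and control 2, and Ung had none in any. Windows were not analysed here for Ccne2, Gins1, Gins2, Gins4, Mcm4, Pole, Prim2 and Rfc2.

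Sites present in each of 3 samples of one group and none of the other were then set beside the genes, within 10 kb of the gene bounds. In LPS against control, 8 of the 43 genes had a gained site (35.3% of tested genes) and 4 a lost one (15.3%), and the lost ones lay at Cdt1, Pold1, Rfc3 and E2f2. In LPS+LA against LPS, 2 had a gained site (14.3% of tested genes), Lig1 and Ccne2, and 6 a lost one (13.7%), at Orc1, Gins1, Pole, Rfc2, Rrm1 and Chaf1b. In LA against control, 2 had a gained site (10.2%) and 4 a lost one (14.4%), at Cdt1, Pold1, Chaf1a and E2f2. In LPS+LA against LA, 7 had a gained site (28.5%), E2f2 and Cdt1 among them, and 0 a lost one (3.8%). LPS+LA and LA samples were sequenced in lane 6 and LPS and control samples in lane 5, per the file headers, so that lane and lactic acid cannot be told apart in these peaks.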

How the data were processed

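RNA was measured in 10 libraries and open chromatin in 12 ATAC samples, grouped by the labels alone. The authors deposited 1 table with expected counts and TPM for each gene. The submitters' processing notes name HISAT, Bowtie2 and GRCm38.p6, and the sources used here name no counting tool. Values were rounded to whole counts, since 6.07% of the expected counts held fractions. The deposited peak lists give a score per peak, the authors' own value, used only to filter. Per the submitters' processing notes, peaks come from MACS2 2.0.10, with BWA 0.5.9, Picard and mm10 (GRCm38).

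Genes were kept by filterByExpr (minimum count 10, minimum total 15), scaled by TMM and fitted in 1 model with a term per group over all 10 libraries in edgeR 4.0.16 (glmQLFit, robust). Contrasts were tested by its quasi-likelihood test, two-sided, adjusted by Benjamini-Hochberg over 12213 genes at 0.05. Intervals are log2 plus or minus 1.96 SE, where SE is log2 over the root of F. TPM compared levels between genes only. Of the gene IDs 15959 matched RefSeq, and 17 of the 43 genes overlap another annotated gene. The fit was tested on simulated counts with known changes in LPS+LA against LPS. It recovered 60% of changes of log2 0.5, 72% of log2 1, 86% of log2 2 and 88% of log2 3. Of its calls 6.13% were false. Only 50 genes of each size were changed, up or down, and all others were equal between groups. In the data 29.2% of tested genes were called higher and 29.7% lower in that comparison, so these rates need not hold there. Not every set change was recovered, so a small change that is not called may still be present. The 43 genes and all other lists were chosen with earlier results of these data known. In each role group the 3 genes of highest CPM, and in each comparison the 5 called genes with the largest log2 in each direction, were to be given in full, the others by ranges and counts, with up to 4 genes of each other list by adjusted p and Mki67, Ccnd1, Cdkn1a, Myc and Tnf fixed. DESeq2 1.42.0 gave an alternative test and size factors. Other alternatives were total-count scaling, no filter, a replicate block, each library left out, control 1 and LPS+HCl 2 left out, and only the groups compared. A site distance of 50 kb was added after seeing the data.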

Additional observations from a re-analysis of the deposited data

Results flagged for a closer look

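For 30 of the 43 genes the LA effect with LPS differed from the LA effect without LPS (interaction tested in edgeR, adjusted p under 0.05 over 12213 genes). Over all tested genes the called interaction was positive for 20.4% and negative for 23.9%. In log2, the values were 3.37 for Ung, 3.24 for E2f2, 3.02 for Cdc6, 2.33 for Ccne2, 2.14 for Cdt1, 1.76 for Pold1 and 1.40 for Chaf1a. Those between 1 and 1.2 were 1.17 for Mcm3, 1.12 for Rfc1, 1.11 for Mcm2 and 1.06 for Chaf1b. Mcm7 had 1.00, Gins3 0.98, Rfc4 0.98, E2f1 0.97, Prim1 0.84, Fen1 0.84, Rrm2 0.75, Pole 0.72 and Rpa2 0.69. The smallest positive values were 0.65 for Mcm4, 0.60 for Gins1, 0.51 for Mcm5, 0.51 for Rfc2, 0.51 for Cdc45, 0.50 for Rpa1, 0.48 for Dut and 0.44 for Gins4. Orc1, at -1.15, and Mcm10, at -0.75, were negative. The calls of Gins1, Gins3, Gins4, Dut, Cdc45, Rfc2, Orc1 and Mcm10 were lost under at least 1 of 17 alternatives, and the other 22 were kept under each. With 1 library left out, lost values were 0.39 to 0.62 for Gins1, 0.71 to 0.92 for Gins3, 0.37 to 0.47 for Gins4, 0.42 to 0.53 for Dut, 0.44 for Cdc45 (without LPS 2 or control 2) and 0.39 for Rfc2 (without LPS 2).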

How the results depend on the processing

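Of 301 pairs of gene and comparison, 172 were called, 125 of them with the same sign under all 17 alternatives, and 47 lost the call under at least 1. Of the 129 pairs not called, 74 were called under at least 1. Leaving out 1 library at a time gave 33 to 35 called genes in LPS against control (34 with all), 7 to 10 in LA against control (10), 31 to 34 in LPS+LA against LPS (33), 14 to 25 in LPS+HCl against LPS (23), 25 to 29 in LPS+LA against LPS+HCl (29), 8 to 14 in LPS+LA against LA (13) and 24 to 29 in the interaction (30). Total-count scaling gave 28 in LPS+LA against LA, where it put the median log2 of all genes at -0.22. Among pairs called on either scale, it turned the sign of Orc1 (-0.52), Pcna (-0.63) and Tyms (-0.57) in LPS against control. The sign also turned for Pola1 (0.36) and Rfc5 (0.34) in LPS+LA against LPS, and for Pcna (0.044) in LPS+HCl against LPS. In the interaction, where the median of all genes was 0.51, it turned for Pcna (0.35), Rfc3 (0.44) and Tyms (0.40). Some pairs called on neither scale changed sign too. In LA against control the median log2 of the 43 genes went from 0.05 with TMM to -0.06. With the replicate block 33 genes were called in LPS against control and 33 in LPS+LA against LPS. Same-numbered libraries deviated together at r of -0.0518 to 0.0495 in 9 of 10 pairs of groups and -0.503 between control and LPS+HCl. No large deviation in the same direction was thus seen between libraries of equal number. The negative value means that control 1 and LPS+HCl 2, the 2 libraries also left out together, deviated alike from their group partners. Whether equal numbers mark a shared culture or animal is not stated in the labels, and these values cannot settle it. Promoters with a peak averaged 32.7 in LPS+LA, 33 in LPS, 33 in LA and 33 in control from the higher-scoring peaks, 33.3 in LPS+LA, 33.3 in LPS and 33 in LA with 100 bp of overlap, and 35 in each group within 1 kb of the start. Leaving out 1 sample gave 34 in LPS+LA and LPS, and 33.5 to 34 in LA and in control. Within 50 kb in place of 10 kb, 12 of 43 genes had a site lost with LPS (30% of tested genes). The least counted library value was 14 counts, for Cdc6 in LPS, and depth limits the precision of such genes first.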

Other observations

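Some genes of the other lists moved against most of their list, and they were picked after their values were seen. Samhd1, an enzyme that breaks down deoxynucleotides stood out by size. Its CPM was 228 and 258 in LPS+LA, 719 and 709.8 in LPS+HCl, 1483 and 1576 in LPS, 173 and 176 in LA and 225 and 222 in control. It was higher in LPS than in control (log2 2.78, SE 0.07) and lower in LPS+LA than in LPS (log2 -2.65, SE 0.07), and the LPS libraries stood far above every other group. Dck, the kinase that salvages deoxynucleosides, was higher in LPS than in control (log2 1.08, SE 0.09) and lower in LPS+LA than in LPS (log2 -0.72, SE 0.09). For Ccnd2, cyclin D2, CPM was 118 and 138 in LPS+LA, 527 and 499 in LPS+HCl, 744 and 785 in LPS, 64.1 and 60.9 in LA and 92.9 and 83.5 in control, with LPS highest, while Ccnd1 and Ccnd3 had their lowest values in LPS. Timeless, a fork protection factor, was lower in LPS+LA than in LPS (log2 -0.98, SE 0.11), as was Rbl1, the E2F-binding pocket protein p107 (log2 -1.07, SE 0.08).

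Tnf, the inflammatory cytokine, had 1865 and 1391 CPM in LPS+LA, 2789.8 and 2966 in LPS+HCl, 11339.9 and 10599.6 in LPS, 69.4 and 100.5 in LA and 29.3 and 29.4 in control. Myc, a growth regulator, was lower in LPS than in control (log2 -0.37, SE 0.12) and was not called between LPS+LA and LPS (log2 -0.22, SE 0.12).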
